A study of Homo sapiens with 42 samples.

Results

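The genes described here are 7 transcriptional regulators and signalling inhibitors: ID1, ID2 and ID3, the inhibitory SMADs SMAD6 and SMAD7, and CITED2 and CITED4. They were found by symbol through their Ensembl gene IDs and are 7 of the 58243 genes counted in each fraction. All 7 passed the filter on low counts in both fractions. The list was chosen by earlier results of these data, among them the nuclear RNA values of CITED2 after 1 h of imatinib and of ID1 after 1 h of JTE-607, so those 2 comparisons are described here without a test.

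K562 is an established line from a human chronic myeloid leukaemia, which carries the BCR-ABL1 fusion kinase. The CTRL groups were untreated K562 cells, and every other group was the same line after 1 treatment. Imatinib (IM, 1 μM), an inhibitor of that kinase, was given for 1, 6 or 18 h. JTE-607 (JTE, 5 μM), an inhibitor of the nuclease CPSF73 that cuts new transcripts at their 3′ ends, was given for 1, 6 or 18 h, and KCl (110 mM), an osmotic stress, for 1 or 3 h. Poly(A) mRNA of whole cells was sequenced for all 9 of these groups, and nuclear RNA depleted of ribosomal RNA for CTRL, IM 1h, IM 18h, JTE 1h and KCl 1h, each with 3 replicates from separate experiments, so that 42 libraries were used. All results concern 1 cell line at 1 dose of each agent.

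ID proteins have a helix-loop-helix domain but no basic region, so they pair with basic helix-loop-helix factors and keep them off DNA. Their genes are textbook targets of bone morphogenetic protein (BMP) signalling, which runs from ligands through paired receptors to the receptor SMADs and SMAD4. SMAD6 and SMAD7 are induced by the same pathways and act back on the receptors as inhibitors. CITED2 and CITED4 do not bind DNA themselves but bind the coactivators CBP and p300, for which CITED2 competes with the hypoxia factor HIF1A, and CITED2 is known for its part in the maintenance of blood stem cells.

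The DNA just before the start of 4 of the genes is given because they include the member that fell most under imatinib (ID1) and those that rose most (CITED2 and CITED4), together with the only member whose window held the palindromic SMAD-binding element (SMAD6). The sequences are RefSeq's, build GRCh38.p14, from up to 250 bases before the RefSeq start to the first annotated exon of the gene, 5′ to 3′ on the gene's strand. Capitals mark a match to 1 of the 4 motifs searched on both strands: GTCTAGAC, the palindromic SMAD-binding element; GGCGCC, a BMP-responsive SMAD site; TTCNNNGAA, the STAT consensus; and TGACGTCA, the cyclic AMP response element.
ID1, chr20:31605039-31605282, plus strand: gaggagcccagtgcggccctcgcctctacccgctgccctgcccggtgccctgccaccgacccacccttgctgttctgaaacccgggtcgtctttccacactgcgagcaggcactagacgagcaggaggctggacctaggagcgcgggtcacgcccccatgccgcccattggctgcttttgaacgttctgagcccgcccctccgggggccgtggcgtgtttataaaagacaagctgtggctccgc
SMAD6, chr15:66701986-66702231, plus strand: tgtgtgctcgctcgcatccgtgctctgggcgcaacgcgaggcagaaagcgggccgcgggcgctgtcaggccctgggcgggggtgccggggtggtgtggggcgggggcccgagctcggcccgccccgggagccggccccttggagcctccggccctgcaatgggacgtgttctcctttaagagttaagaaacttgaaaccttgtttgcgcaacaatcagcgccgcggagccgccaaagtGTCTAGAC
CITED2, chr6:139374649-139374898, minus strand: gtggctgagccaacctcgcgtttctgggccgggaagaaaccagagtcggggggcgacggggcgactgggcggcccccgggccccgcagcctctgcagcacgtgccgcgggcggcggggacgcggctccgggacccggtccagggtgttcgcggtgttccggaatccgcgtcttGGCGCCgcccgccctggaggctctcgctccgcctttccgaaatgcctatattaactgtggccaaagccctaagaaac
CITED4, chr1:40862367-40862613, minus strand: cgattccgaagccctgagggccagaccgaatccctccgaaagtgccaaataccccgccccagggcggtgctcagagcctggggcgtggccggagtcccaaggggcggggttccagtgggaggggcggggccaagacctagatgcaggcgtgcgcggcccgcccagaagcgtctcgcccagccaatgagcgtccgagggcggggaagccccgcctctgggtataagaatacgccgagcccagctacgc

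The SMAD6 window held GTCTAGAC at position -12 from the RefSeq start, where its last 4 bases lie in the first exon as counted, and the printed CITED2 window, the first of its 3 RefSeq windows, held GGCGCC at position -77. The second CITED2 window, not printed, held GGCGCC at position -176. No match of the 4 motifs was found in the ID1 and CITED4 windows, and DNA further upstream was not searched. All 7 members had at least 1 RefSeq window of 300 bases (250 before and 50 after the start). Those of ID2 and ID3 lie largely in exons as counted and are not printed; the ID3 window held TTCNNNGAA at position -181. Among 34796 different windows of this length, 0.193% held GTCTAGAC, 19.2% held GGCGCC, 7.67% held TTCNNNGAA and 1.84% held TGACGTCA. None of the matches in the members' windows overlapped another.

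Library totals ran from 16439848 to 22505595 counts in 25 of the mRNA libraries, were 62953314 in KCl 1h replicate 2 and 42474454 in KCl 1h replicate 3, and ran from 16175394 to 25103205 in nuclear RNA. The K562 markers GATA1, KLF1, TAL1, HBG1, HBG2, HBE1, TFRC and EPOR were present in every library, with EPOR lowest at 7.31 CPM (counts per 1000000 counts of the TMM-scaled library total). Of the markers of other cell types, CD3E, MS4A1, CD79A, COL1A1, COL3A1 and ALB stayed at or below 2.93 CPM in every library, while PECAM1 reached 18.8 CPM in mRNA.

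In untreated cells CITED2 and ID1 were the most abundant members. Per kilobase of exon, CTRL mRNA held 29.0 ± 5.42 CPM of CITED2 and 24.7 ± 7.85 CPM of ID1 (SD, n = 3), whose ranges overlap. ID3 and ID2 followed at 3.40 ± 0.800 and 3.11 ± 2.57 CPM per kilobase, SMAD6 at 0.949 ± 0.171, CITED4 at 0.290 ± 0.0865 and SMAD7 at 0.231 ± 0.0769. In CTRL nuclear RNA, ID1 led with 49.3 ± 0.847 CPM per kilobase and CITED2 came next with 22.3 ± 1.06. CITED4 and SMAD7 therefore rest on few reads, 5 to 9 and 10 to 20 counts per CTRL mRNA library. The 2 kinds of library were made differently, so levels are set side by side across fractions and not compared.

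Over the imatinib time course ID1 and ID3 mRNA fell, CITED2 and CITED4 mRNA rose, and SMAD7 mRNA fell by 18 h, whereas the JTE time course left few differences and KCl raised ID2. Calls needed an adjusted p under 0.05 (edgeR's quasi-likelihood test, adjusted by Benjamini-Hochberg over all genes tested) and a fitted log2 fold change above 0.6 or below -0.6. At 1 h of imatinib 0 of 7 members were called in mRNA, where 0.0166% of all genes tested were called, although 2 (ID1 and CITED2) had an unadjusted p under 0.05 and DESeq2 called 1 (ID1). The count was 4 of 7 at 6 h (background 9.94%) and 5 of 7 at 18 h (background 30.5%), both including CITED4, which entered the mRNA test through the imatinib groups where it was high. After JTE, 1 member was called at 1 h (CITED2, background 0.851%), 1 at 6 h (ID1, background 13.2%) and 0 at 18 h (background 5.39%), where 3 (ID3, SMAD6 and CITED2) had an unadjusted edgeR p under 0.05 and DESeq2 called 0. After KCl, 0 were called at 1 h (background 5.45%), where 1 (ID2) had an unadjusted edgeR p under 0.05 and DESeq2 called 0, and 2 at 3 h (ID1 and ID2, background 11.9%). In nuclear RNA 5 of 7 were called at IM 18h (background 32.6%) and 1 of 7, ID2, at KCl 1h (background 23.8%). The members were chosen with earlier results of these data known, and nuclear CTRL entered the values behind that choice. Member counts beside a background, here and below, therefore describe the members and do not test them against it. The median log2 fold change of the members was 0.34 at IM 18h in mRNA and 0.74 in nuclear RNA, beside 0.04 and 0.00 over all genes tested. All comparisons with CTRL in a fraction share its 3 CTRL libraries, and in RNA from whole cultures fewer cells of a type and less RNA per cell cannot be told apart.

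**Figure D1:**
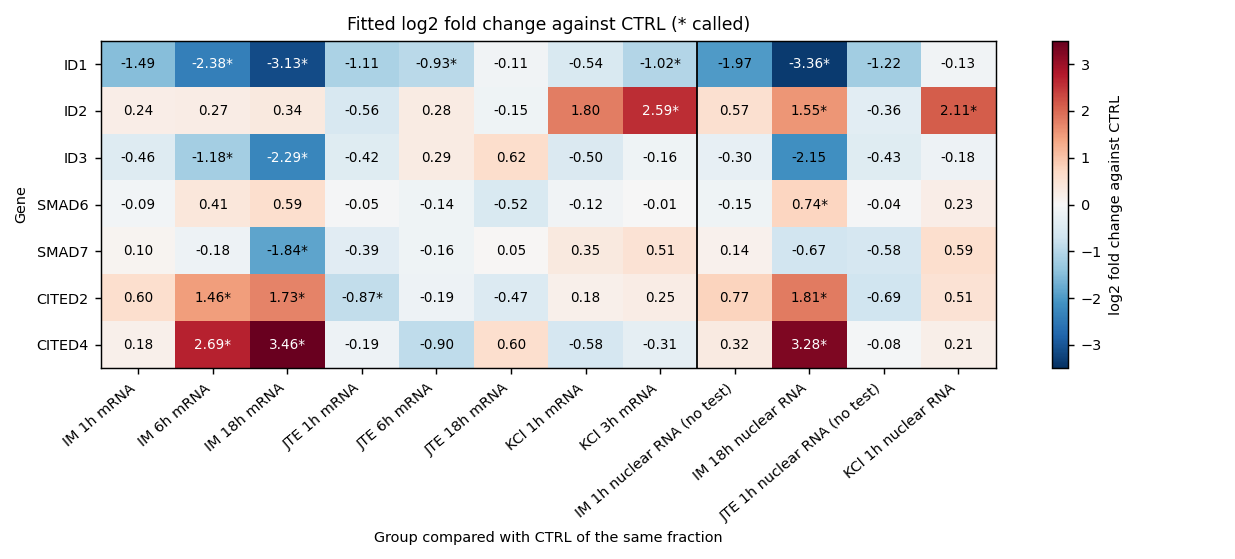
Fitted log2 fold change of each gene (rows) in each treated group against CTRL of the same fraction (columns; mRNA left of the line, nuclear RNA right), with an asterisk for a call. ID1 is negative in all 12 columns, CITED4 reaches 3.46 at IM 18h mRNA, and ID2 stands out in the KCl columns; the columns for IM 1h and JTE 1h nuclear RNA carry no test.

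ID1 (ENSG00000125968, chr20:31605283-31606515, plus strand, hg38) was counted over 1 block of 1233 exon bases and overlaps no other annotated gene. Its CTRL mRNA values were 24.6, 41.6 and 25.0 CPM in replicates 1, 2 and 3. Replicates carry the numbers of their titles throughout, but for mRNA CTRL the study's own list of libraries has numbers 1 and 2 the other way round, which affects no group, mean or test without a block. After imatinib they were 15.6, 8.20 and 8.68 CPM at 1 h, 6.90, 4.71 and 5.83 CPM at 6 h, and 4.02, 2.95 and 3.47 CPM at 18 h. At each of these times every imatinib library lay below every CTRL library. The log2 fold change against CTRL was -1.49 at 1 h (SE 0.31, adjusted p 0.243 by edgeR), -2.38 at 6 h (SE 0.32, adjusted p 3.15e-05 by edgeR) and -3.13 at 18 h (SE 0.34, adjusted p 2.52e-07 by edgeR). The last 2 passed the test, and the value at 1 h did not. From 6 to 18 h ID1 had a log2 difference of -0.74 (SE 0.34, adjusted p 0.184 by edgeR), which was not called although the 2 groups did not overlap.

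After JTE and KCl the fitted changes of ID1 were smaller, a difference tested only between IM 18h and JTE 18h. The JTE values were 22.3, 9.58 and 10.3 CPM at 1 h, 18.7, 14.1 and 15.1 CPM at 6 h, and 26.4, 29.0 and 29.4 CPM at 18 h. The 1 h and 6 h libraries all lay below CTRL, and those at 18 h lay within its range. ID1 was called at JTE 6h, with a log2 fold change of -0.93 (SE 0.30, adjusted p 0.0335 by edgeR), and not at JTE 1h (-1.11, SE 0.30, adjusted p 0.0936 by edgeR) or JTE 18h (-0.11, SE 0.30, adjusted p 0.881 by edgeR). DESeq2 called ID1 at JTE 1h (adjusted p 0.0253), as did edgeR with the replicate number as a block or without the low-count filter. With RLE size factors or only the 2 groups, edgeR did not call it there. After KCl the values were 28.1, 13.4 and 21.6 CPM at 1 h, overlapping CTRL, and 18.4, 11.9 and 14.9 CPM at 3 h, all below it. The fall at KCl 3h passed the test (log2 fold change -1.02, SE 0.30, adjusted p 0.0222 by edgeR). Leaving out 1 library ended the JTE 6h call in 3 of 6 fits (without CTRL replicate 2, JTE 6h replicate 2 or JTE 6h replicate 3; log2 fold change over the 6 fits -1.09 to -0.66) and the KCl 3h call in 3 of 6 (without CTRL replicate 2, KCl 3h replicate 2 or KCl 3h replicate 3; -1.20 to -0.73), and gave a JTE 1h call without JTE 1h replicate 1 (fits from -1.61 to -0.81).

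In nuclear RNA the 3 CTRL libraries held 61.6, 61.1 and 59.6 CPM of ID1, and the IM 18h libraries 4.21, 6.69 and 6.96 CPM. The groups were far apart, and the log2 fold change of -3.36 (SE 0.27, adjusted p 1.54e-07 by edgeR) passed the test. The same CTRL libraries entered the JTE 1h comparison behind the choice of ID1, so tests against them are not independent of that choice. At KCl 1h the values were 59.6, 67.9 and 38.8 CPM, which overlap CTRL (-0.13, SE 0.23, adjusted p 0.761 by edgeR). Without a test, IM 1h held 14.5, 17.5 and 14.3 CPM and JTE 1h 23.0, 36.4 and 18.9 CPM, both below every CTRL library, at fitted log2 fold changes of -1.97 and -1.22.

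**Figure D2:**
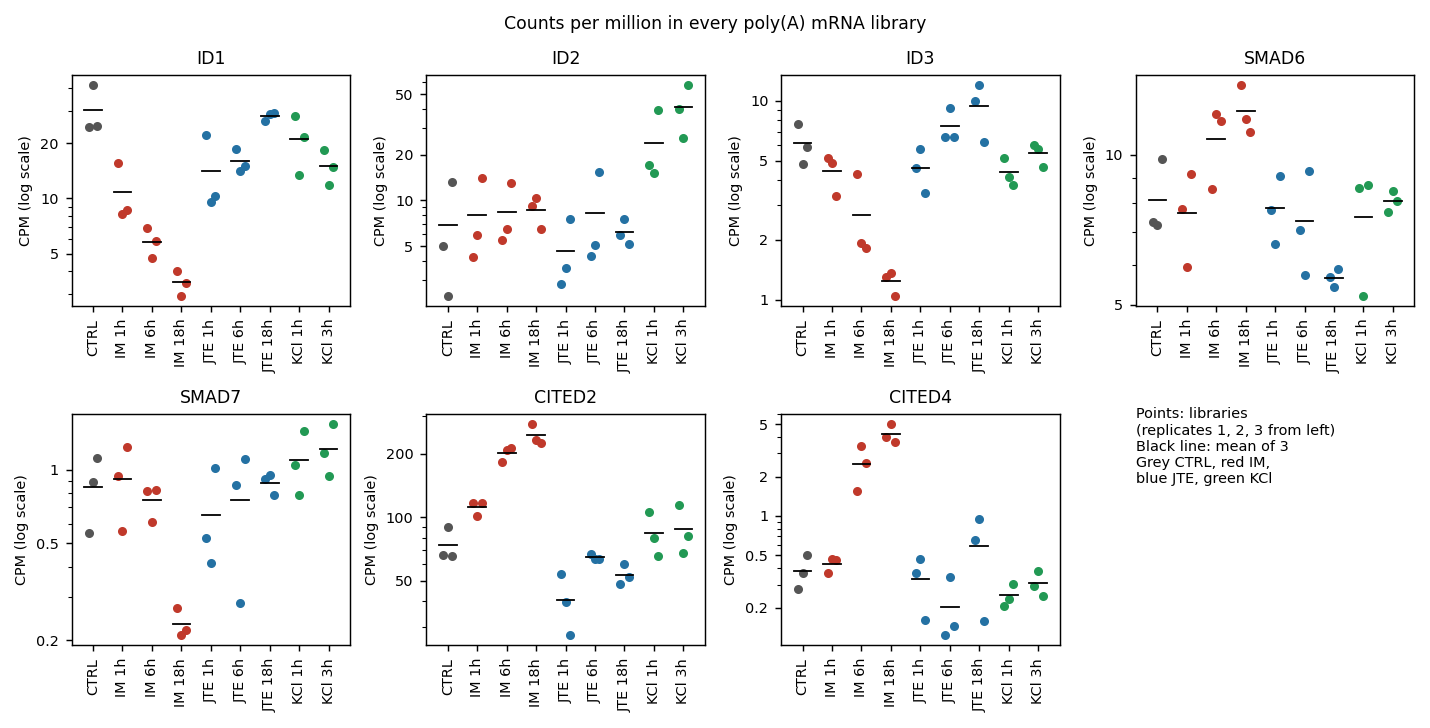
CPM of each gene in the 27 mRNA libraries on a log axis, by group, with a black line at the mean of the 3 replicates. ID1 steps down from 30.4 CPM in CTRL to 3.48 CPM at IM 18h while CITED2 steps up from 73.6 to 244 CPM, and the KCl groups hold the highest ID2 means.

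ID3 (ENSG00000117318, chr1:23557918-23559794, minus strand) fell at 6 and 18 h of imatinib. CTRL mRNA held 7.66, 4.82 and 5.85 CPM. The imatinib values were 5.18, 4.87 and 3.31 CPM at 1 h, 4.27, 1.93 and 1.82 CPM at 6 h, and 1.30, 1.37 and 1.05 CPM at 18 h. The 1 h libraries overlapped CTRL, while those at 6 and 18 h all lay below it. Against CTRL it had log2 fold changes of -0.46 at 1 h (SE 0.29, adjusted p 1 by edgeR), -1.18 at 6 h (SE 0.29, adjusted p 0.00798 by edgeR) and -2.29 at 18 h (SE 0.32, adjusted p 5.50e-06 by edgeR). The 6 h call was lost without CTRL replicate 1 or without IM 6h replicate 3; fits that left out 1 library ranged from -1.73 to -0.98.

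After JTE, ID3 held 4.61, 5.70 and 3.42 CPM at 1 h, 6.57, 9.22 and 6.56 CPM at 6 h, and 9.98, 12 and 6.22 CPM at 18 h. All 3 groups overlapped CTRL, and ID3 was called in none of them (log2 fold changes -0.42, 0.29 and 0.62). The KCl values, 5.18, 4.15 and 3.77 CPM at 1 h and 5.97, 5.72 and 4.65 CPM at 3 h, also overlapped CTRL and were not called (-0.50 and -0.16). In nuclear RNA 1 library of each of 4 groups stood high. CTRL held 5.09, 6.51 and 17.9 CPM and IM 18h 1.35, 1.96 and 3.51 CPM. The groups did not overlap, but the log2 fold change of -2.15 had an SE of 0.84 and was not called (adjusted p 0.0596 by edgeR). Replicate numbers pair the nuclear libraries, and with the number as a block ID3 was called at IM 18h (log2 fold change -2.10, adjusted p 0.0433 by edgeR). ID3 at KCl 1h, with 5.39, 15.4 and 4.95 CPM, overlapped CTRL.

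ID2 (ENSG00000115738, chr2:8678845-8684453, plus strand) rose after KCl, by the test at 3 h in mRNA and at 1 h in nuclear RNA. Of its 2205 exon bases 145 are shared with ID2-AS1 on the opposite strand. Counting used no strand option, so reads there cannot be told apart by strand. The study lists ambiguous reads as unassigned, so read pairs there may be missing from the ID2 counts. CTRL mRNA held 5.02, 2.36 and 13.2 CPM, KCl 1h 17.0, 15.2 and 39.1 CPM, and KCl 3h 40.1, 25.9 and 57.5 CPM. Every KCl library lay above every CTRL library, and replicate 3 was the highest in each of these groups. KCl gave log2 fold changes of 1.80 at 1 h (SE 0.60, adjusted p 0.0903 by edgeR), which was not called, and 2.59 at 3 h (SE 0.61, adjusted p 0.00486 by edgeR), which was. Without CTRL replicate 3, the highest CTRL library, the 1 h difference was called as well, with a log2 fold change of 2.68, the largest of the 6 fits that left out 1 library (from 1.24).

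In nuclear RNA, CTRL held 2.28, 2.14 and 4.16 CPM of ID2 and KCl 1h 12.5, 13.6 and 10.9 CPM. These groups were well separated, and the rise passed the test (log2 fold change 2.11, SE 0.35, adjusted p 0.000221 by edgeR). Nuclear ID2 also rose at IM 18h, where the libraries held 7.14, 6.69 and 11.4 CPM (1.55, SE 0.35, adjusted p 0.00212 by edgeR). In mRNA the IM 18h libraries, at 9.18, 10.3 and 6.44 CPM, lay within the range of CTRL (0.34, SE 0.61, adjusted p 0.684 by edgeR). The remaining mRNA groups overlapped CTRL too: ID2 ran from 4.24 to 14 CPM at IM 1h, from 5.47 to 13 CPM at IM 6h and from 2.83 to 15.4 CPM over the 9 JTE libraries, and was not called in any of them. Replicate 3 held the most ID2 in 7 of the 9 mRNA groups, all but IM 18h and JTE 18h.

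SMAD6 (ENSG00000137834, chr15:66702228-66782848, plus strand, 8563 exon bases) had the smallest called change against CTRL. CTRL mRNA held 7.33, 7.23 and 9.81 CPM, IM 6h 8.54, 12.1 and 11.7 CPM, and IM 18h 13.8, 11.8 and 11.1 CPM. The 6 h libraries overlapped CTRL and the 18 h libraries lay above it. At IM 18h the log2 fold change of 0.59 (SE 0.21, adjusted p 0.0233 by edgeR) fell just short of the fold change threshold, and it passed without CTRL replicate 3 or without IM 18h replicate 3 (0.49 to 0.71 over the 6 fits). In nuclear RNA, CTRL held 16.5, 15.4 and 16.9 CPM and IM 18h 25.3, 23.2 and 33.1 CPM, with no overlap. This rise was called (0.74, SE 0.13, adjusted p 8.35e-05 by edgeR), except without IM 18h replicate 3, the highest library, where the log2 fold change was 0.57. JTE 18h held 5.68, 5.42 and 5.91 CPM of SMAD6 mRNA, below every CTRL library, a difference that was not called (-0.52, SE 0.21, adjusted p 0.139 by edgeR). The other mRNA groups ran from 5.22 to 9.29 CPM and overlapped CTRL.

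SMAD7 (ENSG00000101665, chr18:48919853-48950711, minus strand, 3692 exon bases) had the lowest mean level per kilobase of exon in CTRL mRNA. It held 0.551, 0.891 and 1.11 CPM in CTRL mRNA, 0.819, 0.608 and 0.825 CPM at IM 6h, and 0.271, 0.211 and 0.220 CPM at IM 18h, the last from 4 to 5 counts per library. The 6 h libraries lay within CTRL, and the 18 h libraries lay below every other mRNA library. The log2 fold change at IM 18h was -1.84 (SE 0.49, adjusted p 0.00379 by edgeR) and was called, with fits from -2.08 to -1.64 when 1 library was left out. In nuclear RNA, CTRL held 1.92, 1.23 and 1.04 CPM and IM 18h 0.857, 1.00 and 0.761 CPM, which did not overlap but were not called (-0.67, SE 0.38, adjusted p 0.154 by edgeR). With the replicate block, nuclear SMAD7 at IM 18h was called (log2 fold change -0.69, adjusted p 0.0291 by edgeR). KCl 1h nuclear RNA held 2.67, 2.47 and 1.21 CPM and KCl 3h mRNA 1.17, 0.945 and 1.53 CPM, both overlapping CTRL, with log2 fold changes of 0.59 and 0.51 that were not called.

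CITED2 (ENSG00000164442, chr6:139371807-139374620, minus strand, 2535 exon bases) rose under imatinib in both fractions. An uncharacterised gene (ENSG00000226571) lies on the opposite strand without sharing any of its exon bases. CTRL mRNA held 66.1, 89.4 and 65.1 CPM. The imatinib values were 117, 101 and 117 CPM at 1 h, 183, 209 and 213 CPM at 6 h, and 275, 233 and 224 CPM at 18 h. None of these libraries overlapped CTRL. Fitted log2 fold changes were 0.60 at 1 h (SE 0.20, adjusted p 1 by edgeR), 1.46 at 6 h (SE 0.20, adjusted p 3.79e-05 by edgeR) and 1.73 at 18 h (SE 0.20, adjusted p 6.18e-07 by edgeR), the last 2 being calls.

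JTE lowered CITED2 mRNA at 1 h, to 53.8, 39.5 and 27.7 CPM, all below CTRL. The log2 fold change of -0.87 was called (SE 0.20, adjusted p 0.0363 by edgeR), but 5 of the 6 fits that left out 1 library lost the call (all but the fit without JTE 1h replicate 1), with log2 fold changes from -1.13 to -0.66. At 6 h the values were 66.9, 63.5 and 63.6 CPM, which overlap CTRL (-0.19, SE 0.20, adjusted p 0.601 by edgeR), and at 18 h they were 48.2, 59.7 and 51.9 CPM, which lie below it without a call (-0.47, SE 0.20, adjusted p 0.161 by edgeR). KCl left the mRNA at 106, 79.9 and 65.1 CPM at 1 h and 114, 67.7 and 81.4 CPM at 3 h, both overlapping CTRL.

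Nuclear CITED2 was even between replicates. CTRL held 53.9, 56.6 and 59.2 CPM, IM 18h 187, 189.7 and 220.2 CPM, and KCl 1h 77.7, 89.0 and 75.0 CPM. Both treated groups lay above CTRL. The rise at IM 18h was called (log2 fold change 1.81, SE 0.12, adjusted p 1.51e-09 by edgeR), and that at KCl 1h passed on p but not on size (0.51, SE 0.12, adjusted p 0.00288 by edgeR). The 1 h nuclear values, given here without a test, were 90.4, 94.7 and 103 CPM after imatinib and 28.5, 42.5 and 34.4 CPM after JTE, at fitted log2 fold changes of 0.77 and -0.69. Of these, the imatinib values were among those behind the choice of this gene, beside the same nuclear CTRL libraries. The tests of CITED2 against nuclear CTRL are therefore not independent of that choice.

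CITED4 (ENSG00000179862, chr1:40861051-40862366, minus strand, 1 block of 1316 exon bases) was barely detected outside the imatinib groups of 6 and 18 h. CTRL mRNA held 0.276, 0.367 and 0.502 CPM from 5 to 9 counts. The imatinib values were 0.366, 0.469 and 0.459 CPM at 1 h, 1.55, 3.39 and 2.53 CPM at 6 h, and 4.02, 5.00 and 3.69 CPM at 18 h. The 1 h libraries lay within CTRL, and the later ones were well above it. The log2 fold change was 2.69 at 6 h (SE 0.42, adjusted p 0.000107 by edgeR) and 3.46 at 18 h (SE 0.41, adjusted p 6.14e-07 by edgeR). Of the 8 mRNA libraries that reached the filter's limit of 0.525 CPM for CITED4, 6 were IM 6h or IM 18h libraries, so the gene entered the mRNA test through the groups where it was high. With no filter on low counts both calls stood, but that run added 8 calls among 119 gene results and lost 0. It therefore does not settle how far the filter shaped these calls. In nuclear RNA, where 8 libraries other than those of IM 18h reached the limit of 0.478 CPM, CTRL held 0.358, 0.866 and 0.644 CPM and IM 18h 6.21, 5.40 and 6.67 CPM. That rise was also called (3.28, SE 0.33, adjusted p 1.54e-07 by edgeR).

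In the other mRNA groups CITED4 rested on 2 to 16 counts per library. The JTE values were 0.367, 0.466 and 0.160 CPM at 1 h, 0.124, 0.342 and 0.144 CPM at 6 h, and 0.659, 0.952 and 0.157 CPM at 18 h, and the KCl libraries ran from 0.207 to 0.378 CPM. All of these groups overlapped CTRL, and none was called against it.

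**Figure D3:**
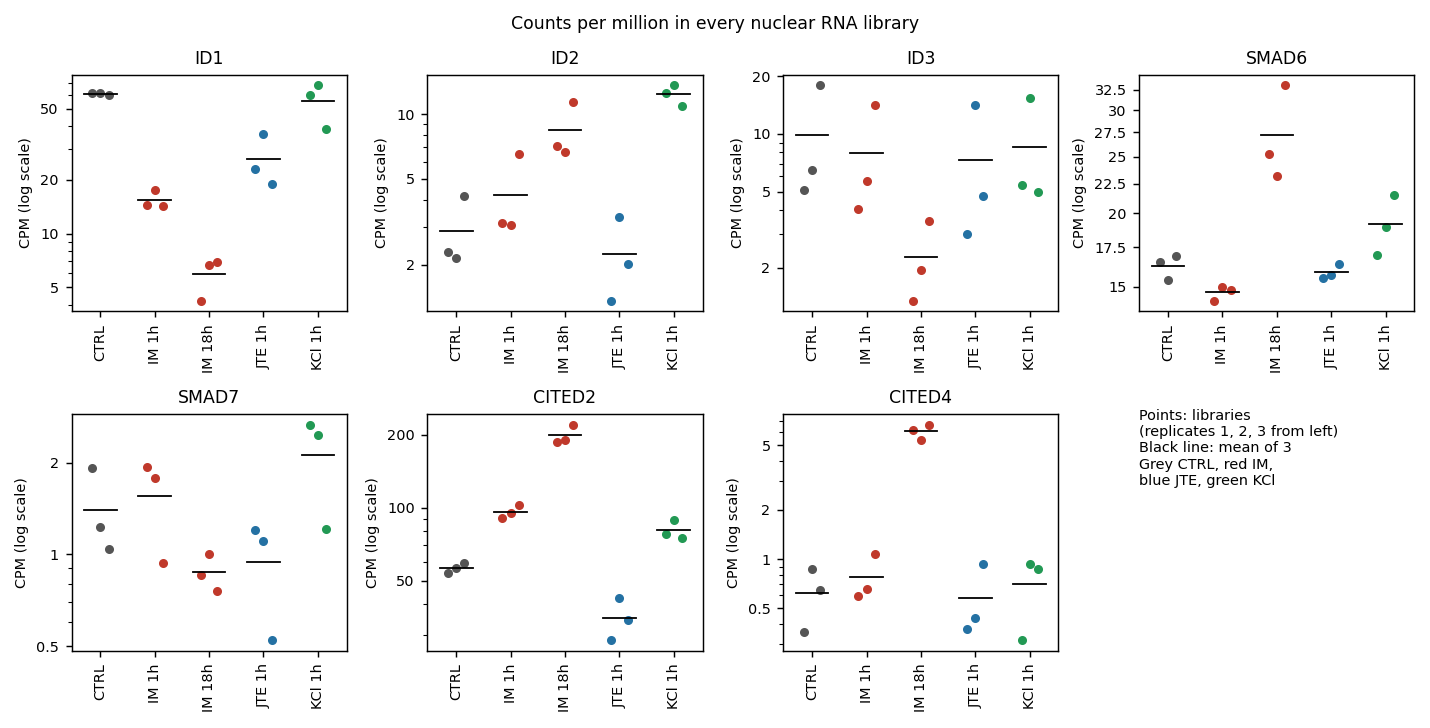
CPM of each gene in the 15 nuclear RNA libraries on a log axis, by group, with a black line at the mean of the 3 replicates. ID1 is near 60.8 CPM in CTRL and 5.95 CPM at IM 18h, ID2 is highest at KCl 1h with a mean of 12.3 CPM, and ID3 has 1 high library in CTRL, IM 1h, JTE 1h and KCl 1h.

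Between the times of 1 treatment few members differed. From IM 6h to IM 18h, 2 of 7 were called (background 4.41%): ID3 changed by -1.12 (SE 0.33, adjusted p 0.0378 by edgeR) and SMAD7 by -1.66 (SE 0.49, adjusted p 0.0371 by edgeR). The 2 times did not overlap for either gene. The ID3 call held in 1 of the 6 fits without a library (that without IM 6h replicate 3; log2 fold changes from -1.33 to -0.60), and the SMAD7 call in none of them (-1.78 to -1.59). From JTE 1h to JTE 6h, 1 of 7 was called (background 9.23%), CITED2, which rose by 0.68 (SE 0.20, adjusted p 0.0262 by edgeR) without overlap. Leaving out JTE 1h replicate 2 or 3 or JTE 6h replicate 1 or 3 ended its call (0.47 to 0.94). Replicate numbers pair the JTE 1h, 6h and 18h libraries, and with the number as a block ID3 was also called from 1 to 6 h (log2 fold change 0.72, adjusted p 0.0199 by edgeR).

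From JTE 6h to JTE 18h, 1 of 7 was called (background 13.4%), CITED4, which rose by 1.5 (SE 0.54, adjusted p 0.0477 by edgeR). Its libraries overlapped, since JTE 18h replicate 3 held 3 counts, and leaving out JTE 6h replicate 1 or 3 or JTE 18h replicate 1 or 2 ended the call (1.01 to 2.06). ID1 rose by 0.83 without overlap and was not called (SE 0.30, adjusted p 0.0534 by edgeR), while with the replicate block it was (log2 fold change 0.85, adjusted p 0.0138 by edgeR). DESeq2 called ID1 and not CITED4 here. From KCl 1h to KCl 3h, edgeR called 0 of 7 (background 3.29%), 0 members had an unadjusted p under 0.05 and DESeq2 called 0; ID2 changed by 0.79 (SE 0.56, adjusted p 0.608 by edgeR).

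Imatinib and JTE were compared directly at 18 h. There 6 of 7 members were called (background 30.3%), including CITED4, which entered the mRNA test through the imatinib groups where it was high. The CITED4 call is therefore not independent support. ID1 was lower after imatinib with a log2 difference of -3.02 (SE 0.34, adjusted p 3.81e-07 by edgeR), ID3 with -2.91 (SE 0.32, adjusted p 2.27e-07 by edgeR) and SMAD7 with -1.89 (SE 0.49, adjusted p 0.00305 by edgeR). CITED4 was higher, with 2.85 (SE 0.39, adjusted p 3.53e-06 by edgeR), CITED2 with 2.2 (SE 0.21, adjusted p 3.36e-08 by edgeR) and SMAD6 with 1.11 (SE 0.21, adjusted p 0.000187 by edgeR). ID2 overlapped between the groups and was not called (0.49, SE 0.61, adjusted p 0.546 by edgeR). All 6 calls held in every fit that left out 1 library.

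The nuclear and mRNA responses were compared by an interaction term in the 12 libraries concerned. For KCl 1h edgeR called 0 of 7 members (background 0.668%), 0 had an unadjusted p under 0.05 and DESeq2 called 0. The difference for ID2, nuclear minus mRNA, was 0.21 (SE 0.78, adjusted p 0.985 by edgeR). For IM 18h edgeR called 0 of 7 (background 0.0901%), 1 (SMAD7) had an unadjusted p under 0.05 and DESeq2 called 0. The largest differences were those of ID2 (1.27, SE 0.72, adjusted p 1 by edgeR) and SMAD7 (1.22, SE 0.55, adjusted p 0.971 by edgeR). ID1, CITED2 and CITED4 differed between fractions by -0.18 (SE 0.31), 0.14 (SE 0.18) and -0.12 (SE 0.44). A missing call does not show that the responses were equal.

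**Figure D4:**
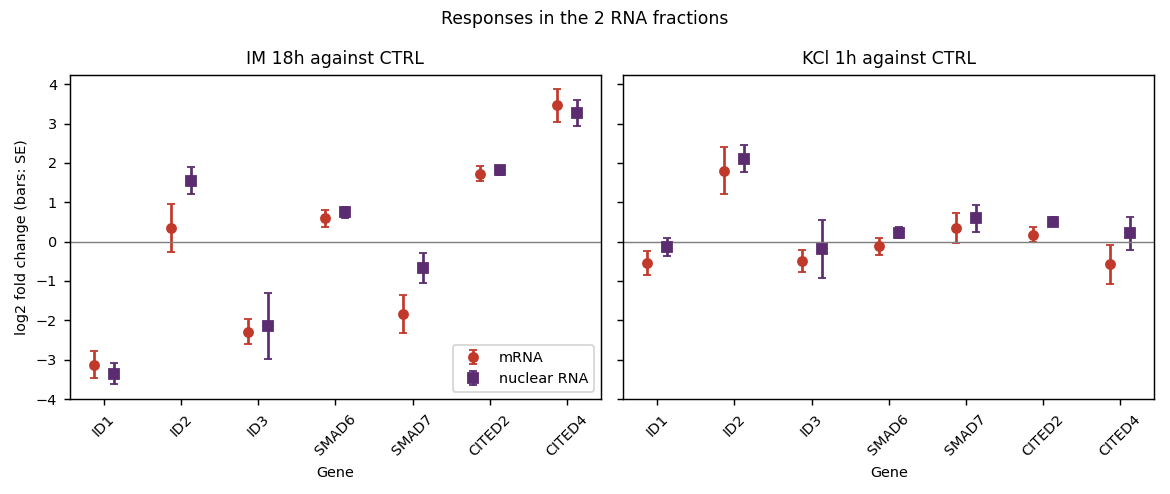
Log2 fold change with its SE for each gene at IM 18h and at KCl 1h, in mRNA (circles) and nuclear RNA (squares). The pairs for ID1, CITED2 and CITED4 lie close together at IM 18h, and the widest gaps there are those of ID2 (0.34 and 1.55) and SMAD7 (-1.84 and -0.67).

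In nuclear RNA at 1 h, without a test, the members other than ID1 and CITED2 lay nearer to CTRL. CITED2 at IM 1h and ID1 at JTE 1h were among the values behind the choice of the members, so this contrast is a description only. At IM 1h the fitted log2 fold changes were 0.57 for ID2, -0.30 for ID3, -0.15 for SMAD6, 0.14 for SMAD7 and 0.32 for CITED4. Of these, SMAD6, with 14.2, 15 and 14.8 CPM, lay below CTRL, and the others overlapped it. At JTE 1h the fitted log2 fold changes were -0.36 for ID2, -0.43 for ID3, -0.04 for SMAD6, -0.58 for SMAD7 and -0.08 for CITED4, and all 5 overlapped CTRL. The share of all genes without overlap was not computed, so the separation of SMAD6 is a description only.

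Ordered by mean mRNA level, the 9 groups differed in their spacing from gene to gene. For ID1 the 3 imatinib groups came last, and IM 1h, IM 6h and IM 18h were separated from each other while the neighbouring groups from CTRL (30.4 ± 9.68 CPM, SD, n = 3) through JTE 18h (28.2 ± 1.65 CPM), KCl 1h, JTE 6h, KCl 3h and JTE 1h to IM 1h (10.8 ± 4.13 CPM) overlapped. For ID3 only IM 18h was set apart from its neighbour, at 1.24 ± 0.171 CPM below 2.67 ± 1.39 CPM at IM 6h. For ID2 the 2 KCl groups overlapped each other, and KCl 1h (23.8 ± 13.3 CPM) was set apart from IM 18h (8.64 ± 1.99 CPM), below which all neighbours overlapped. SMAD6 ran from 12.2 ± 1.44 CPM at IM 18h to 5.67 ± 0.247 CPM at JTE 18h with each neighbour overlapping the next. SMAD7 was highest at KCl 3h (1.22 ± 0.297 CPM), and only IM 18h (0.234 ± 0.0328 CPM) was set apart from its neighbour. For CITED2, IM 18h (244 ± 27.1 CPM), IM 6h (202 ± 16.3 CPM) and IM 1h (111 ± 9.02 CPM) came first, IM 18h and IM 6h being set apart from the group below, and a further gap lay between JTE 6h (64.7 ± 1.96 CPM) and JTE 18h (53.3 ± 5.85 CPM). CITED4 had gaps below IM 18h (4.24 ± 0.684 CPM) and below IM 6h (2.49 ± 0.922 CPM) and none further down.

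The genes around these members were taken from 6 lists: ligands and secreted inhibitors, receptors, receptor SMADs with SMAD4, SMAD corepressors and ubiquitin ligases, basic helix-loop-helix partners of the ID proteins, and partners of CITED proteins. Of 56 genes 45 were tested in mRNA. At IM 18h 7 were called higher (background 17.2%) and 7 lower (background 13.2%), with a median log2 fold change of -0.03 beside 0.04 over all genes. Among 11 receptors 2 rose and 4 fell, and among 7 basic helix-loop-helix partners 3 rose and 0 fell. ENG, an auxiliary receptor, rose from 0.749 ± 0.414 to 3.78 ± 0.189 CPM (fitted log2 change 2.33, SE 0.40, adjusted p 5.85e-05 by edgeR). TAL1, a basic helix-loop-helix factor of the blood and red cell lineage, rose from 154 ± 12.5 to 422 ± 36.1 CPM (1.45, SE 0.14, adjusted p 4.59e-08 by edgeR). LDLRAD4, which limits SMAD activation, was called at IM 18h from 0 counts in CTRL and at most 2 counts per library, too few for a fold change.

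The falls at IM 18h were led by BAMBI, a pseudoreceptor that blocks BMP and TGF-β signalling and is itself a target of the pathway. It fell from 11 ± 1.76 to 2.15 ± 0.311 CPM (fitted log2 change -2.35, SE 0.40, adjusted p 5.41e-05 by edgeR). CITED1, a further CITED protein, fell from 1.47 ± 0.382 to 0.612 ± 0.0612 CPM (-1.26, SE 0.32, adjusted p 0.00291 by edgeR), and EPAS1, the hypoxia factor HIF-2α, from 11.9 ± 4.29 to 4.99 ± 0.949 CPM (-1.25, SE 0.46, adjusted p 0.0307 by edgeR). Of the 5 receptor SMADs and SMAD4 tested and the 8 ligands and secreted inhibitors, 0 were called in either direction at IM 18h. At IM 6h 2 of the 45 were higher (background 5.82%) and 3 lower (background 4.12%). ENG (1.5, SE 0.41, adjusted p 0.0137 by edgeR) and TAL1 (0.84, SE 0.14, adjusted p 0.000185 by edgeR) rose. The type I receptors TGFBR1 (-0.78, SE 0.14, adjusted p 0.000448 by edgeR) and ACVR1B (-0.60, SE 0.15, adjusted p 0.00739 by edgeR, just past the threshold) and the corepressor TGIF2 (-0.69, SE 0.21, adjusted p 0.0292 by edgeR) fell.

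At JTE 6h 4 of the 45 were higher (background 6.73%) and 2 lower (background 6.47%). LYL1, a relative of TAL1, fell from 82.7 ± 16.2 to 23.9 ± 5.6 CPM (fitted log2 change -1.79, SE 0.18, adjusted p 2.01e-07 by edgeR) and GDF11, a TGF-β family ligand, from 34.7 ± 6.16 to 12.2 ± 2.54 CPM (-1.51, SE 0.18, adjusted p 1.19e-06 by edgeR). BMP8B rose from 0.731 ± 0.277 to 2.67 ± 0.845 CPM (1.87, SE 0.41, adjusted p 0.00190 by edgeR). SMAD9 rose from 9 counts over the 3 CTRL libraries to 39 (2.12, SE 0.71, adjusted p 0.0384 by edgeR). At JTE 1h BMP8B (1.85, SE 0.41, adjusted p 0.0254 by edgeR) and LDLRAD4 were called higher (0.851% of all genes tested were called in either direction). At JTE 18h TGIF1 (-0.86, SE 0.15, adjusted p 0.000504 by edgeR) and LYL1 (-0.67, SE 0.18, adjusted p 0.0180 by edgeR) were called lower (5.39% of all genes tested in either direction).

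KCl raised LDLRAD4 and BMP6. LDLRAD4 had 0 counts in all 3 CTRL mRNA libraries and 28 to 102 counts per library at KCl 1h, which is at least 9.31-fold higher with CTRL set at 3 counts per library, and at least 9.17-fold higher at KCl 3h. By the same measure it was at least 1.47-fold higher at JTE 1h and at least 3.23-fold higher at JTE 6h. BMP6, a BMP ligand, went from 3 counts over the CTRL libraries to 72 at KCl 1h, a ratio of 10.8 after scaling (95% interval 3.57 to 53.8, exact binomial, counting error only), and to 41 at KCl 3h (ratio 12.2, 3.89 to 61.6). Both were called at both times, and at KCl 1h LDLRAD4 and BMP6 were the only 2 called of 45 (background 5.45% in either direction). Outside the KCl groups BMP6 had at most 4 counts per mRNA library and LDLRAD4 at most 15. Both therefore entered the mRNA test mainly through the groups where they were high, so their KCl calls are not independent support. At KCl 3h 3 of 45 were higher (background 4.55%) and 2 lower (background 7.33%). TGFB2 was the third to rise, from 0.437 ± 0.119 to 1.20 ± 0.234 CPM (fitted log2 change 1.44, SE 0.46, adjusted p 0.0318 by edgeR), and ACVR1B (-0.90, SE 0.15, adjusted p 0.000124 by edgeR) and SKI (-0.72, SE 0.16, adjusted p 0.00196 by edgeR) fell.

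In nuclear RNA 45 of the 56 genes were tested. At IM 18h 7 were called higher (background 17.2%) and 9 lower (background 15.4%), and at KCl 1h 6 were higher (background 15.3%) and 0 lower (background 8.5%). BAMBI, CITED1, ENG and TAL1 were called at IM 18h in nuclear RNA in the directions they had in mRNA. EPAS1, which fell in mRNA, was higher in nuclear RNA and passed there on p but not on size (0.39, SE 0.13, adjusted p 0.0198 by edgeR).

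**Figure D5:**
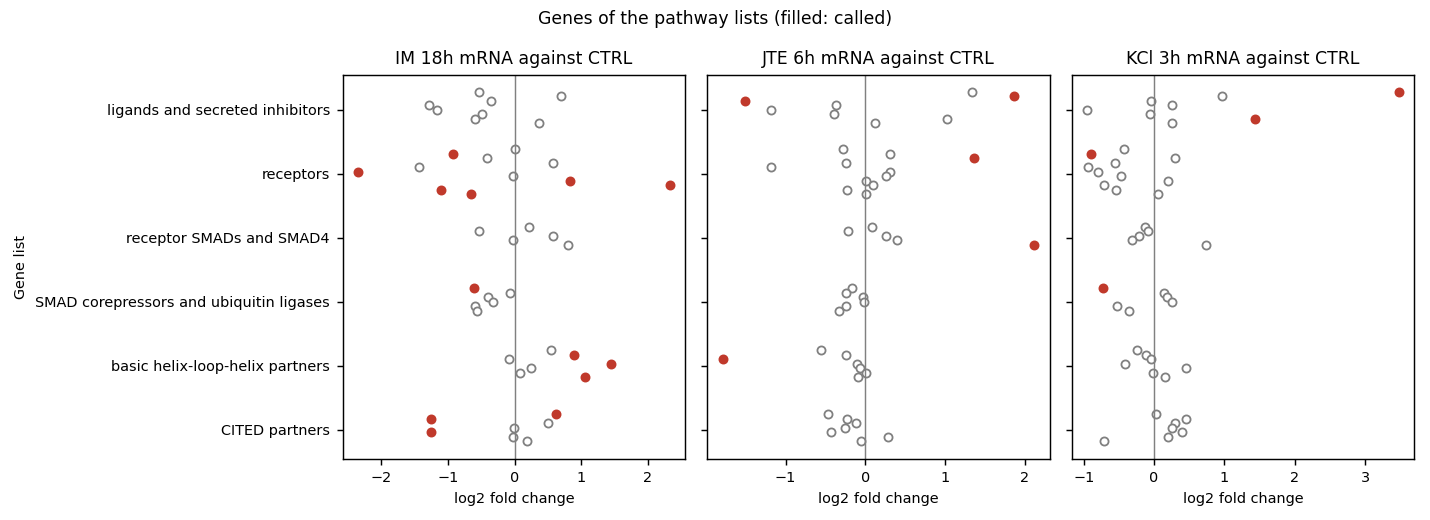
Log2 fold change of each tested gene of the 6 lists at IM 18h, JTE 6h and KCl 3h in mRNA, filled where called; LDLRAD4 is left out because it had no count in CTRL. Calls lie on both sides of 0 among the receptors at IM 18h, where BAMBI is at -2.35 and ENG at 2.33, and on the higher side among the basic helix-loop-helix partners.

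The mRNA profile of each member over the 9 group means of log2(CPM + 0.5) was set beside those of 8720 genes with a mean of at least 10 CPM. Closest to ID1 were CISH, a STAT5 target and cytokine signalling inhibitor (Pearson r 0.949), and MYD88 (0.942). CISH ran from 54.0 CPM in CTRL to 7.63 CPM at IM 18h. Closest to ID2 were ZFP36L1, an mRNA decay factor (0.990), and the nuclear receptor NR4A2 (0.982), both highest at KCl 3h and lowest at JTE 1h. C2CD2L (0.969) and DNAJA3 (0.968) were closest to ID3. For SMAD6 they were CDT1, a replication licensing factor (0.991), and SVBP (0.986), and for SMAD7 CDC6, also of replication licensing (0.956), and the pseudogene HNRNPA3P1 (0.947), whose reads are uncertain because close copies exist. FNBP1L (0.964) and STAM (0.942) were closest to CITED2, and METTL7A (0.996) and CEP250 (0.995) to CITED4. Among the members, r was 0.91 for ID1 with ID3 and 0.85 for CITED2 with CITED4, whereas ID2 lay between -0.14 and 0.50 with the others. These values describe 9 points that share libraries and CTRL, with no test.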

How the data were processed

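Gene counts of 42 K562 libraries (27 of mRNA, 15 of nuclear RNA) were used. The authors trimmed and deduplicated the reads with fastp, aligned them to hg38 with STAR (unique alignments, introns up to 10000 bases) and deposited raw counts of read pairs per gene from featureCounts. No strand option was used, so antisense reads were counted, and duplicates were removed without molecular identifiers. The annotation release is not given in the sources used here. Of 58243 gene IDs, 57532 are in GENCODE 44, from which symbols were taken.

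For each fraction, 1 model over all its libraries was fitted to the counts with edgeR 4.0.16 (R 4.3.3), using TMM normalization, filterByExpr and the robust quasi-likelihood test, and p-values were adjusted over all genes tested (18095 in mRNA, 21929 in nuclear RNA). Thresholds follow the study's methods. CPM use TMM-scaled totals, and differences between fractions were tested as an interaction. Replicates differed by more than sampling noise (chi-square per gene 2.37 to 62.5), so each library counted as 1. On simulated data the script was tested before use. Promoters are RefSeq's.

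The members and gene lists were chosen with earlier results of these data known. Named were the 7 members, up to 3 of the largest called rises and falls of the lists in each mRNA comparison with CTRL, and the 2 genes closest to each member in profile. Alternatives were DESeq2 1.42.0, RLE size factors, no low-count filter, no threshold on size, only the 2 groups, a replicate block, and leaving out each library in turn. Replicate numbers come from the titles. Deviations from group means correlated above 0.1 for every same-number pair in nuclear RNA (0.235 to 0.891 with CTRL) and within the JTE and KCl time courses compared, so the numbers pair those libraries. They did not for mRNA libraries with CTRL, but the titles and the study's own list of libraries number mRNA CTRL replicates 1 and 2 the other way round, so pairing with mRNA CTRL is unsettled; the titles' numbers were used. Of the cell type markers checked, 2 are not reported here.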

Additional observations from a re-analysis of the deposited data

Results flagged for a closer look

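For 4 gene effects a direct test found a difference between 2 times of the same treatment. From 6 to 18 h of imatinib, ID3 mRNA changed by -1.12 and SMAD7 mRNA by -1.66 on the log2 scale. From 1 to 6 h of JTE, CITED2 mRNA changed by 0.68, from values below CTRL to values that overlap it. From 6 to 18 h of JTE, CITED4 mRNA changed by 1.5. All 4 passed edgeR's test with adjusted p-values between 0.0262 and 0.0477. Of all genes tested, 4.41% were called from IM 6h to 18h, 9.23% from JTE 1h to 6h and 13.4% from JTE 6h to 18h. The 1 call among 7 members in each JTE comparison is near these shares. DESeq2 did not call CITED4 (adjusted p 0.0501). With only the 2 groups, edgeR did not call ID3 (adjusted p 0.074) or CITED2 (adjusted p 0.133). The SMAD7 call was lost whichever of the 6 libraries was left out, and the other 3 when certain single libraries were left out. SMAD7 rested on 4 to 5 counts per IM 18h library and CITED4 on 2 to 6 counts per JTE 6h library, and the part of low counts in these differences was not tested.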

How the results depend on the processing

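No gene result that was called reversed its direction under any alternative run, and the 4 calls at IM 6h, the 5 at IM 18h, the 6 of IM 18h against JTE 18h and the 5 of nuclear IM 18h stayed within 1.5 times of their number under every alternative. Leaving out 1 library gave 3 to 4, 5 to 6, 6 to 6 and 4 to 5 calls there. Over all single libraries left out, the count ran from 0 to 0 at IM 1h, 0 to 2 at JTE 1h, 0 to 1 at JTE 6h, 0 to 0 at JTE 18h, 0 to 1 at KCl 1h, 1 to 2 at KCl 3h, 0 to 1 for IM 18h against 6h, 0 to 1 for JTE 6h against 1h and for JTE 18h against 6h, 0 to 0 for KCl 3h against 1h, 1 to 1 for nuclear KCl 1h and 0 to 0 for both interactions.

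At IM 1h the count went from 0 to 1 (ID1) with DESeq2, with no filter on low counts and with the replicate block. At JTE 1h it went from 1 to 2 (ID1 added) with the same 3 alternatives and to 0 with only the 2 groups. At KCl 1h it went from 0 to 1 (ID2) with no filter and with the block. IM 18h against 6h had 1 call with only the 2 groups. JTE 6h against 1h had 2 with no filter and with the block, and 0 with only the 2 groups. JTE 18h against 6h had 2 with RLE size factors, no filter and the block. KCl 3h against 1h had 1 with no filter, and nuclear KCl 1h had 2 without the fold change threshold. The cause was not tested. With only the 2 groups, SMAD7 at IM 18h and CITED4 between JTE 18h and 6h did not pass the filter on low counts and gave no value.

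Under the titles' replicate numbers, which may be exchanged for CTRL replicates 1 and 2, the check did not show that mRNA libraries pair with CTRL (same-number correlations from -0.366 to 0.878), so pairing there is unsettled. The block on these numbers raised the count at IM 18h from 5 to 6 (SMAD6, log2 fold change 0.61, edgeR adjusted p 0.00539). In nuclear IM 18h the count with the block was 7. Of 119 gene results the block left 110 on their side of the thresholds and added 9 calls. The share of all genes called under each alternative is not given here, so a higher count there says nothing particular about the members. DESeq2 left 114 of 119, lost 1 and added 4. RLE size factors moved the median of all genes by at most 0.072. Depth limits CITED4 and SMAD7, whose mRNA counts went down to 2 and 4 per library.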
